A study of Mus musculus with 3 samples.

Results

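Colony-stimulating factors are secreted cytokines that drive the production, survival and activation of myeloid white blood cells, and the genes described here are 3 of these ligands together with 5 receptor chains. The 8 genes, Csf1, Csf2, Csf3, Csf1r, Csf3r, Csf2ra, Il5ra and Csf2rb, were taken by symbol from the 22757 named genes of an RNA-seq table of mouse pancreatic tumour cell lines, and all 8 were present. They were chosen by their FPKM in these same libraries as found by an earlier reading of the table, so every count and difference of theirs is a description. The lines come from tumours of transgenic mice whose genotype label reads p16-/- in all 3 cases and belong to a progression model called HI-Panc. HI-Panc-L stands for the localized stage, HI-Panc-I for the invasive stage and HI-Panc-M for the metastatic stage, with 1 line and 1 library each, so no difference has a replicate check. Cells were kept in DMEM with 10% serum, and the shared treatment text gives cobalt chloride, a chemical mimic of hypoxia, at 100 ng/ml for 24 h, without saying whether each library was treated. The tissue label is body wall for the localized, pancreatic tissue for the invasive and liver for the metastatic line. If the localized and invasive lines had been exchanged, every direction between those libraries would turn round and their comparisons with the metastatic library would trade places.

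Csf1 (M-CSF) acts through the receptor tyrosine kinase Csf1r on monocytes and macrophages, Csf3 (G-CSF) through Csf3r on neutrophils and their precursors, and Csf2 (GM-CSF) on granulocytes, macrophages and dendritic cells. The Csf2 receptor pairs a ligand-binding alpha chain, Csf2ra, with a signalling beta chain, Csf2rb. The same beta chain serves the interleukin-5 receptor, whose alpha chain is Il5ra, found on eosinophils and some B cells, and the interleukin-3 receptor, whose alpha chain is Il3ra. Pancreatic tumour cells are known to secrete Csf2 and Csf3 and thereby to recruit myeloid cells, while the receptors are mostly found on blood cells.

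The values are FPKM, fragments scaled to transcript length and to library depth, after subtraction of 0.1, the lowest value in each deposited column. Low values fell on steps of whole fragments, from which depths of about 45500000, 41100000 and 43300000 fragments were estimated for the localized, invasive and metastatic libraries. Intervals are 95% exact counting intervals on these estimated fragments and cover counting error only. Differences between libraries are in log2(FPKM + 1), a scale on which the fold of a low gene comes out too small, and a gene was called higher or lower at 2-fold if its mean over the libraries was at least 1 FPKM. The p16 gene Cdkn2a was listed at 0, 15.4 and 23.6 FPKM along the stages from localized to metastatic. The levels in the invasive and metastatic libraries go against the p16-/- label if the whole gene was lost. The labels do not say which part was deleted, and 1 value per gene cannot tell p16 from Arf, the other product of this gene, so the label is not checked by it. The 8 epithelial markers summed to 1195, 6279 and 6786 FPKM in the same order, and of 6 past the filter 5 were higher in the invasive and 6 in the metastatic than in the localized library, with 0 lower. Krt8 had 765, 2356 and 2247 FPKM and Krt7 0.793, 598 and 1077 FPKM, while Epcam had 0.209, 1.31 and 2.63 FPKM and Cldn4 and Esrp1 stayed at or below 0.0891 FPKM. Of 10 acinar and islet markers 9 were at 0 in every library, and the other, Cela1, had 7.24, 1.125 and 0.3225 FPKM along the stages. Cela1 was called lower in both comparisons with the localized library. Liver markers chosen after the values were seen, Alb, Apoa1 and Ttr, stayed at or below 0.0586 FPKM. Fibroblast markers summed to 453, 81.8 and 7.38 FPKM over the same order, and 6 of 6 past the filter were lower in both comparisons with the localized library. Among all genes past the filter, 8.78% were higher and 6.08% lower for invasive against localized, and 9.07% and 7.29% for metastatic against localized. The part of these markers in the results below was not tested.

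The ligands held most of the transcript level of the family, though the receptor chain Il5ra alone had 126 FPKM in the metastatic library. The mix of the ligands differed between libraries. Csf1, Csf2 and Csf3 summed to 81.1 FPKM in the localized, 331 FPKM in the invasive and 162 FPKM in the metastatic library. Csf1 made up 97.9% of that sum in the localized library, 26.5% in the invasive library and 30.9% of the metastatic sum. Csf3 was the main ligand in the invasive library with 44.4% and in the metastatic library with 54.5%, against 0.934% in the localized library. Csf2 contributed 1.17%, 29.1% and 14.6% along the stages. FPKM is scaled to transcript length, so these shares compare levels between genes.

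**Figure D1:**
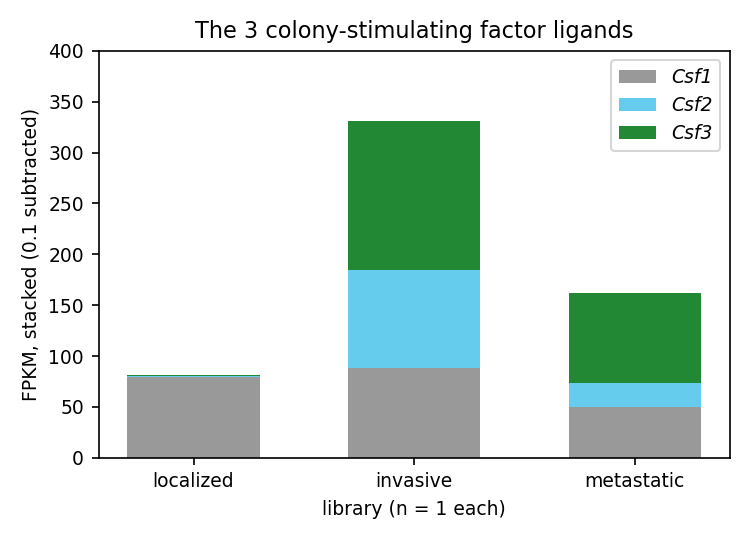
Stacked bars show the FPKM of Csf1, Csf2 and Csf3 in the localized, invasive and metastatic libraries, 1 library each. The invasive bar reaches 331 FPKM and the localized bar, almost all Csf1, reaches 81.1 FPKM.

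Csf3 encodes the granulocyte colony-stimulating factor and lies on GRCm38 chromosome 11, 98701263 to 98703629, on the plus strand (ENSMUSG00000038067.2, 5 exons). It had 0.757 FPKM in the localized library, from about 42 fragments, 147 FPKM in the invasive and 88.3 FPKM in the metastatic library. The localized library was low and the other libraries were high, with the invasive library highest. In the invasive library 2.52% of genes had a higher level than Csf3, and in the metastatic library 4.50%. The invasive over localized ratio was 194 (interval 143 to 270), a difference of 6.40 on the log2 scale and the 6th largest of 11406 genes. The metastatic over localized ratio was 117 (86.1 to 162), a difference of 5.67. Between the later stages the metastatic over invasive ratio was 0.601 (0.579 to 0.623), which is under 2-fold.

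Csf2 encodes the granulocyte-macrophage factor and lies on chromosome 11 as well, 54247271 to 54249667, on the minus strand (ENSMUSG00000018916.5, 4 exons). It overlaps an antisense gene, Gm12223, whose reads cannot be told apart from those of Csf2 because no strand setting is given. Csf2 had 0.948 FPKM in the localized library, from about 27 fragments, 96.2 FPKM in the invasive and 23.6 FPKM in the metastatic library. The order was that of Csf3, with a wider gap between the invasive and metastatic libraries. The invasive over localized ratio was 102 (69.6 to 154) and the metastatic over localized ratio 24.9 (17.0 to 38.2), differences of 5.64 and 3.66. The metastatic level was 0.246 of the invasive level (0.225 to 0.268), a difference of -1.98 and the 23rd lowest of 11406 genes. The ratio of Csf3 to Csf2 FPKM was 0.799, 1.53 and 3.73 along the stages. In the localized library the counting intervals of both genes overlapped, with 0.540 to 1.01 FPKM for Csf3 and 0.631 to 1.39 FPKM for Csf2.

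Both messengers are textbook examples of unstable cytokine mRNA, in which repeats of the pentamer ATTTA, written with T for U, in the 3′ untranslated region bind decay factors. The stretches of 30 bases with the most such pentamers are printed from the GENCODE M21 transcripts, 5′ to 3′ on the transcript strand, with the pentamers in capitals, because Csf2 and Csf3 are the ligands that differed. The Csf2 stretch lies at chr11:54247329-54247358 on the minus strand and the Csf3 stretch at chr11:98702984-98703013 on the plus strand (GRCm38).
Csf2: tttttaaatATTTATTTATTTATTTATTTA
Csf3: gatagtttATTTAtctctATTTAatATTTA
The whole 3′ region held 9 ATTTA in 317 bases for Csf2 and 6 in 669 bases for Csf3, overlapping matches included. Per base, 0.0719% of 18089 genes were denser than Csf2 and 1.86% denser than Csf3. The nonamer TTATTTATT occurred 4 times in Csf2 and not in Csf3, while 6.91% of genes hold it at least once. Csf1 held 4 ATTTA in 2111 bases, and Il5ra, the other member with a large difference, held 1 in 2025 bases.

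Csf1 encodes the macrophage colony-stimulating factor (chromosome 3, 107741048 to 107760469, minus strand, ENSMUSG00000014599.10). It was abundant in every library, with 79.4 FPKM in the localized, 87.9 FPKM in the invasive and 50.1 FPKM in the metastatic library. No pair of libraries differed by 2-fold. The invasive over localized ratio was 1.11 (1.08 to 1.13), the metastatic over localized ratio 0.632 (0.615 to 0.649) and the metastatic over invasive ratio 0.571 (0.555 to 0.586). The table gives 1 value for the gene, so its secreted and membrane-bound isoforms cannot be told apart. Il34, the other ligand of Csf1r, had 18.2 FPKM in the localized, 6.09 FPKM in the invasive and 2.53 FPKM in the metastatic library, and was called lower in each comparison with differences of -1.43 (invasive) and -2.44 (metastatic) from the localized library and of -1.01 for metastatic against invasive. It overlaps antisense genes too. The Csf1 to Il34 ratio was 4.37, 14.4 and 19.8 along the stages.

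**Figure D2:**
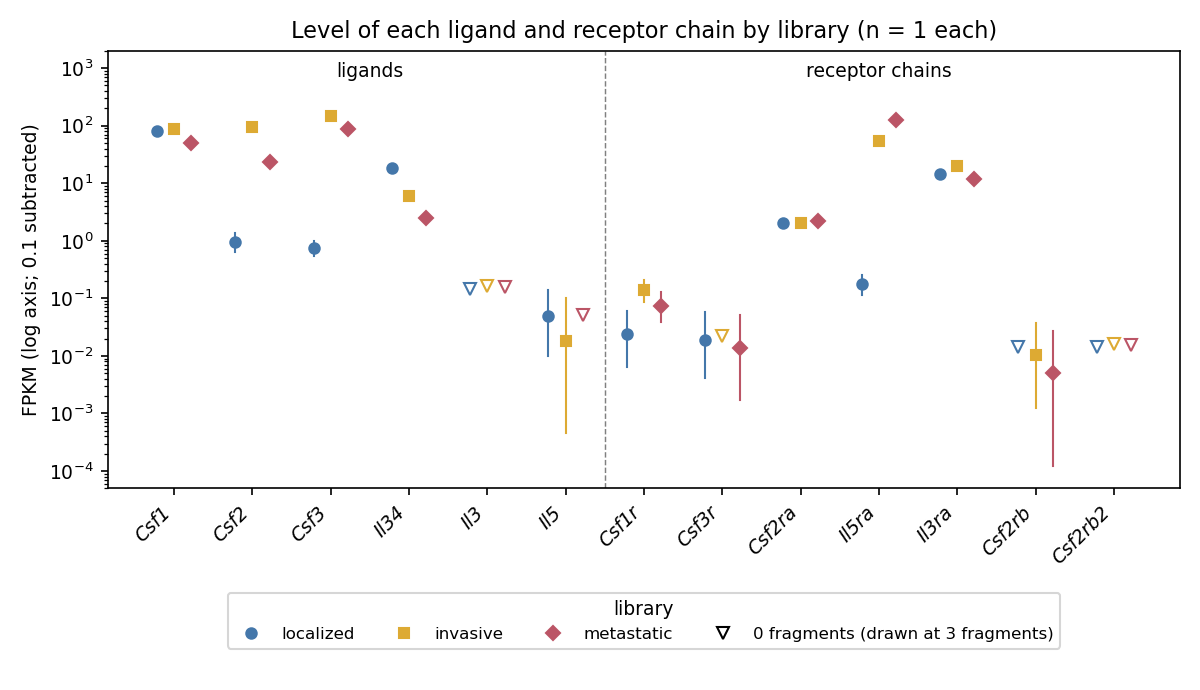
Points give the FPKM of each ligand and receptor chain on a log axis for the localized, invasive and metastatic libraries (n = 1 each), lines give 95% counting intervals, and open triangles mark 0 fragments, drawn at the level of 3 fragments. Csf2, Csf3 and Il5ra are low in the localized library, from 0.175 to 0.948 FPKM, and Csf1r, Csf3r and Csf2rb stay at or below 0.138 FPKM in every library.

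Among the receptor chains of the 8 genes, Il5ra stood far above the others in the invasive and metastatic libraries. Il4ra, a receptor chain from the list of relatives, had 69.0, 68.4 and 55.5 FPKM along the stages, above Il5ra in the invasive library. Il5ra, the ligand-binding chain of the interleukin-5 receptor, lies on chromosome 6, 106710357 to 106749037, on the minus strand (ENSMUSG00000005364.11, 13 exons in the RefSeq-linked transcript). It had 0.175 FPKM in the localized library, from about 27 fragments, 54.6 FPKM in the invasive and 126 FPKM in the metastatic library. Among the 8 genes it was the one with at least a 2-fold difference in the same direction at both steps along the stages as labelled. With the localized and invasive lines exchanged, its levels would run 54.6, 0.175 and 126 FPKM, with no shared direction, and the metastatic over localized ratio would be 2.30. The invasive over localized ratio was 312 (214 to 474), the metastatic over localized ratio 718 (493 to 1089) and the metastatic over invasive ratio 2.30 (2.24 to 2.36). The differences were 5.56, 6.75 and 1.19, and the second was the 6th largest of 11406 genes. In the metastatic library Il5ra was the highest of the 8 genes, ahead of Csf3 at 88.3 FPKM, and 3.05% of all genes had a higher level.

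The promoter of Il5ra is shown because this gene had the largest ratio of the family. The window covers 250 bases before and 50 after the RefSeq start on GRCm38.p6, chr6:106748988-106749287, minus strand, printed 5′ to 3′ along the gene, with matches to the AP-1 motif TGANTCA and to the core motif of the GATA family, here AGATAA, in capitals.
Il5ra: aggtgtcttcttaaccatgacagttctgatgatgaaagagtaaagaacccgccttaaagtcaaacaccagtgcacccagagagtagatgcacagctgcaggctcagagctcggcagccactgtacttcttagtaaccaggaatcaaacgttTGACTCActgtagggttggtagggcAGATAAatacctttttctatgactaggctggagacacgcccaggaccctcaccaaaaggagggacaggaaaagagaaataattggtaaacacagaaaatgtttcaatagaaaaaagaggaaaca
Searched on both strands, the window held 1 match to TGANTCA, beginning at position -99 from the start, and 1 to AGATAA, beginning at position -74. Of 27025 promoters of this length, 7.93% held the first motif and 11.4% the second. No match was found in the window to the TATA-box letters TATAAA, which 14.2% of promoters held, or to the homeodomain core TAATTA, held by 5.31%. The C/EBP motif TTGCNNAA, in 10.8% of promoters, and the NF-kB motif, GGG and CC with any 5 bases between them, in 50.4%, had no match there either. RefSeq windows were matched for 5 of the 8 genes, and of these Il5ra alone held the AP-1 letters. The NF-kB letters matched 5 times in the Csf1 window, 4 times for Csf3r, 2 times for Csf2ra and 1 time for Csf2, with overlapping matches counted. The Csf2 window also held 1 match to AGATAA and 1 to TTGCNNAA. The Csf2 window starts from a RefSeq position 232 bases upstream of the GENCODE start and so does not cover that start. A match is a run of letters, and no binding was measured.

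The signalling partner of Il5ra was near absent in these libraries. Csf2rb, the common beta chain on chromosome 15, was at 0 FPKM in the localized, 0.0106 FPKM in the invasive and 0.00501 FPKM in the metastatic library, which corresponds to 0, 2 and 1 fragments. A count of 0 allows up to 0.0140 FPKM in the localized library, taken as 3 fragments. Csf2rb2, a close paralogue that in mouse pairs with the interleukin-3 alpha chain, was at 0 in all 3 libraries, with limits of 0.0144, 0.0160 and 0.0152 FPKM along the stages. The paralogues are similar in sequence, so fragments could be shared between them in either direction, but their sum was also at most 2 fragments in any library. Il5, the ligand of Il5ra, had 3, 1 and 0 fragments along the stages, and Il3 had 0 in each.

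The other alpha chains were within 2-fold in every pair of libraries. Csf2ra, the ligand-binding chain for Csf2 (chromosome 19, 61223957 to 61228429, minus strand, ENSMUSG00000059326.7), had 2.04 FPKM in the localized, 2.05 FPKM in the invasive and 2.17 FPKM in the metastatic library. Its ratios were 1.00 (0.792 to 1.27), 1.07 (0.848 to 1.34) and 1.06 (0.841 to 1.34) for the same 3 pairs of libraries, invasive against localized first and metastatic against invasive last, so no order of the libraries can be read at this depth. Il3ra had 14.3, 20.3 and 11.9 FPKM along the stages, highest in the invasive library. The Il5ra to Csf2ra ratio was 0.0856, 26.7 and 57.7 along the stages.

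The receptors for Csf1 and Csf3 were low in every library. Csf1r, on chromosome 18, had 0.0237 FPKM in the localized, 0.138 FPKM in the invasive and 0.0746 FPKM in the metastatic library, from 4, 21 and 12 fragments. The invasive over localized ratio was 5.82 (1.96 to 23.3), and the interval of metastatic over localized, 0.956 to 13.4, includes 1. The gene overlaps Hmgxb3 on the opposite strand, which had 8.28, 9.19 and 8.89 FPKM along the stages, and without strand information reads of the overlap cannot be assigned. Csf3r, on chromosome 4, had 0.0193 FPKM in the localized, 0 FPKM in the invasive and 0.0135 FPKM in the metastatic library, from 3, 0 and 2 fragments. The limit for the invasive library was 0.0221 FPKM. Csf3 at 147 FPKM in the invasive library stood beside a Csf3r at 0.

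Defining markers of the blood cells that usually carry these receptors were mostly at or near 0, but some markers were higher in the same libraries as Csf2, Csf3 and Il5ra. Of 20 macrophage and monocyte markers, 6 were at 0 in every library (Emr1, Tyrobp, Spi1, C1qa, C1qb and C1qc) and 15 stayed under 1 FPKM in every library. Taken library by library, 9 of the 20 were at 0 in each, beside 6108, 6937 and 6760 of all 22757 genes along the stages. At least 1 FPKM was reached by 3, 5 and 4 of the 20, beside 11222, 11167 and 11115 of all genes. The pan-leukocyte marker Ptprc had 0.0172, 0.197 and 0.0690 FPKM along the stages. The summed level of the list was 92.0, 166 and 103.5 FPKM, of which Cd14, a lipopolysaccharide co-receptor, gave 84.8, 139 and 80.3 FPKM. Of the 5 past the filter, 3 were higher and 0 lower for invasive against localized, namely the phagocyte oxidase subunit Cybb (0.1004, 5.37 and 0.719 FPKM along the stages), the mannose receptor Mrc1 (1.90, 8.36 and 7.03 FPKM) and the lysosomal protein Laptm5 (0.0197, 1.61 and 4.90 FPKM). Mrc1 and Laptm5 were also higher for metastatic against localized, with 0 lower. The shares of all genes were 8.78% higher and 6.08% lower for invasive against localized, and 9.07% and 7.29% for metastatic against localized. Cd68, another lysosomal protein, had 4.82, 10.5 and 9.93 FPKM and did not reach the call. The neutrophil list summed to 0.815, 103 and 40.5 FPKM, nearly all of it the iron-binding protein Ltf with 0.324, 103 and 40.4 FPKM, while Mpo, Ngp, Camp, Retnlg, Mmp8 and Cebpe were at 0 throughout. Of 10 eosinophil markers, Prg3, Epx, Ear1, Ear6, Ccr3 and Gata1 were at 0 in every library. The exception was Il1rl1, which had 105, 0.0611 and 0.0370 FPKM, the opposite order to Il5ra. Of 12 lymphocyte markers 11 stayed under 1 FPKM in every library, and the other, Lck, had 0.923, 1.458 and 0.667 FPKM along the stages. Among mast cell markers Mcpt4 had 0.0270, 0.958 and 12.9 FPKM, Gata2 25.8, 0.633 and 0.0150 FPKM, and Tpsb2, Fcer1a and Ms4a2 were at 0. Endothelial markers summed to 3.72, 3.02 and 2.2 FPKM, most of it Egfl7 with 3.33, 2.39 and 1.89 FPKM. The part of Cybb, Mrc1, Laptm5, Ltf and the other markers in the results was not tested.

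Set against all genes, 5 of the 8 members passed the filter on low values, and Csf1r, Csf3r and Csf2rb did not. For invasive against localized, 3 of the 5 were at least 2-fold higher, namely Csf2, Csf3 and Il5ra, and 0 were lower, where 8.78% of 11406 genes were higher and 6.08% lower, 14.9% in all. For metastatic against localized the same genes were the 3 called higher and 0 were lower, against 9.07% and 7.29% of all genes, 16.4% together. Both comparisons use the localized library. For metastatic against invasive, Il5ra was higher and Csf2 lower, against 1.33% and 1.67% of all genes, 3.01% together, and Csf1, Csf3 and Csf2ra were within 2-fold. The median of the 5 was 5.56, 3.66 and -0.73 in these comparisons, and that of all genes 0.00, 0.00 and -0.01. Since the genes were chosen by these values, nothing is read from the shares.

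**Figure D3:**
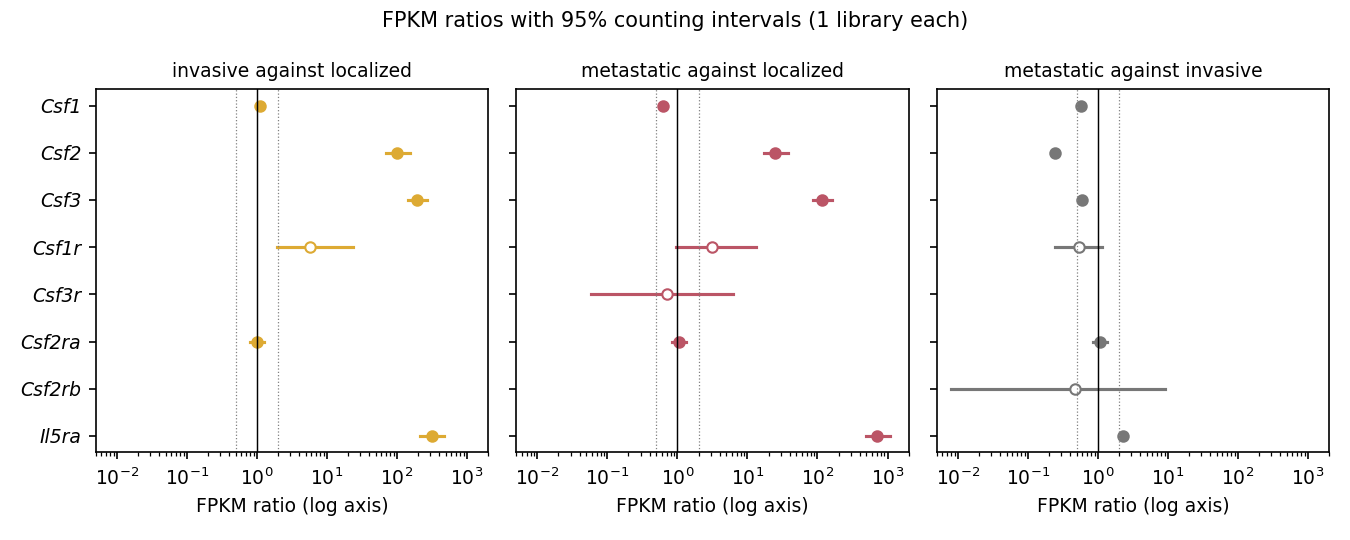
Points give the FPKM ratio of the first-named to the second-named library on a log axis, with 95% counting intervals; filled points passed the filter on low values, dotted lines mark 2-fold, and a ratio is left out where a library had 0 fragments. Il5ra, Csf3 and Csf2 lie between 102 and 312 for invasive against localized, and Csf1 and Csf2ra lie near 1.

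The genes nearest to each member over the 3 log2(FPKM + 1) values were also listed, by Euclidean distance. Nearest to Il5ra were Tmigd1 (distance 0.36), Tmprss2 (0.43) and Mcpt8 (0.90), with Tmigd1 at 0.129, 61.2 and 156 FPKM along the stages. Nearest to Csf3 were Ppp1r1b (0.48), Muc1 (0.68) and Duoxa2 (0.91), and Ppp1r1b had 0.956, 137 and 121 FPKM. Nearest to Csf2 were Tm4sf4 (0.49), Cldn2 (0.91) and Ltf (0.94), and Tm4sf4 had 0.771, 118 and 18.1 FPKM. Csf1 lay closest to Praf2 (0.31), with 70.9, 78.3 and 43.5 FPKM. Each distance rests on 3 points and is a description.

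Known inducers of Csf2 and Csf3 and their regulators were compared next, as a description with no test. Of 32 past the filter among 34 listed, 8 were at least 2-fold higher and 1 lower for invasive against localized, where 8.78% of all genes were higher and 6.08% lower, with a median of 0.37 against 0.00 for all genes. Elf3, an epithelial Ets factor, had 101.7 FPKM in the invasive and 7.20 FPKM in the localized library. The inflammatory cytokine Tnf had 7.58 FPKM in the invasive and 0.282 FPKM in the localized library. Il1a, another, was 2.45 higher on the log2 scale, with 0.280 FPKM in the localized library. The NF-kB inhibitors Nfkbia (237 FPKM invasive, 85.1 FPKM localized) and Tnfaip3 (61.7 FPKM invasive, 22.8 FPKM localized) were higher, as were the kinase Ikbke, the factor Ets2 and the interleukin-17 receptor chain Il17rc. The AP-1 subunit Fosl1 was lower with 7.55 FPKM in the invasive and 20.4 FPKM in the localized library. The NF-kB subunit Rela, with a difference of -0.58, and Nfkb1, with 37.9 FPKM invasive and 30.9 FPKM localized, were within 2-fold. Il1b was at 0 in all 3 libraries.

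For metastatic against localized the inducers went both ways, with 4 higher (Elf3, Tnf, Ikbke and Il1a) and 4 lower (Jun, Nfkbie, Relb and Fosl1). The shares of all genes were 9.07% higher and 7.29% lower, and the list median was 0.29 against 0.00. The AP-1 subunit Jun had 10.1 FPKM in the metastatic and 48.3 FPKM in the localized library. For metastatic against invasive 0 were higher and 1 was lower, against 1.33% and 1.67% of all genes. The lower gene was Jun again, with 24.9 FPKM in the invasive library, and the list median was -0.12 against -0.01. Il1a had 2.62 FPKM in the metastatic library, and its difference from the invasive library, -0.95 on the log2(FPKM + 1) scale, did not reach the 2-fold call.

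Factors that control the decay of cytokine mRNA were measured in full, 13 of 13. Higher in the invasive than in the localized library were Zc3h12a, the endonuclease regnase-1, with 75.0 and 28.1 FPKM, Zfp36, the AU-rich element binding protein tristetraprolin, with 21.9 and 9.04 FPKM, and its relative Zfp36l2 with 247 and 117 FPKM. None of the 13 was lower, and their median was 0.09, where 8.78% of all genes were higher and 6.08% lower. In the metastatic library Zc3h12a, at 69.6 FPKM, was the 1 member called higher than in the localized library, and 0 were lower. The median was 0.07, and 9.07% of all genes were higher and 7.29% lower. Zfp36 was lower in the metastatic than in the invasive library, with 10.0 and 21.9 FPKM, and 0 were higher. For that pair 1.67% of all genes were lower and 1.33% higher. The RNA-binding proteins Hnrnpd, Khsrp and Elavl1 stayed within 2-fold in every pair.

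Downstream of the receptors, 22 of 25 signalling genes passed the filter and their medians were 0.08 (invasive against localized), 0.12 (metastatic, same baseline) and 0.02 (metastatic against invasive). The kinases that colony-stimulating factor receptors use were present in every library, with Jak1 at 39.1, 31.4 and 31.6 FPKM and Jak2 at 16.9, 15.3 and 12.3 FPKM along the stages. The transcription factors Stat3 and Stat5b were within 2-fold, with 20.6, 19.4 and 20.6 FPKM for Stat3. For invasive against localized 3 genes were higher (Lyn, Pik3cd and Shc1), where 8.78% of all genes were higher. Dok1, an adaptor that damps kinase signalling, was lower with 17.6 FPKM in the invasive and 43.6 FPKM in the localized library. For metastatic against localized 4 were higher (Lyn, Shc1, Pik3cd and Gab2), where 9.07% of all genes were higher. Between metastatic and invasive 0 differed in either direction, beside 3.01% of all genes. Lyn, a Src-family kinase, had 3.63 FPKM in the localized, 31.4 FPKM in the invasive and 24.3 FPKM in the metastatic library.

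Targets and feedback inhibitors of these receptors, 15 of 16 past the filter, went both ways, with medians of 0.20, -0.17 and -0.25 in the same comparisons. Cish, a feedback inhibitor induced by Stat5, had 2.98 FPKM in the localized, 0.624 FPKM in the invasive and 0.951 FPKM in the metastatic library, lower in both comparisons with the localized library. Socs3, an inhibitor of the Csf3 receptor, was within 2-fold in each pair, at 18.2 FPKM in the metastatic and 24.5 FPKM in the invasive library. For invasive against localized 3 genes were higher (Ccnd2, Egr1 and Pim1) and Cish was the 1 lower, beside 8.78% and 6.08% of all genes. For metastatic against localized Ccnd2 was the 1 higher, with 60.5 against 7.30 FPKM, and Egr1, Socs1 and Cish were lower. The shares of all genes there were 9.07% higher and 7.29% lower. Between metastatic and invasive 0 were higher and 1 lower, Egr1, with 2.96 and 74.4 FPKM, where 1.33% of all genes were higher and 1.67% lower.

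Genes of Csf1 shedding and turnover, 10 of 10 past the filter, had medians of 0.41, 0.22 and -0.04 in the same comparisons. The sheddase Adam17 had 26.5, 30.3 and 28.9 FPKM along the stages. Timp3, an inhibitor of Adam17, was the 1 gene past 2-fold, lower in both comparisons with the localized library, where 6.08% and 7.29% of all genes were lower. It had 5.07 FPKM in the invasive and 8.15 FPKM in the metastatic library against 165 FPKM in the localized library. Among 18 relatives of the members, 8 passed the filter, with medians of 0.12, -0.28 and -0.32, which were 0.00, -0.06 and -0.02 without the filter. Il34, Kitl and Crlf2 were lower for invasive against localized, beside 6.08% of all genes. Il34 and Kitl were lower for metastatic against localized, beside 7.29%, and Il34 for metastatic against invasive, beside 1.67%. In each comparison 0 were higher, beside 8.78%, 9.07% and 1.33% of all genes. Kitl, the ligand of Kit, had 20.2, 3.12 and 6.80 FPKM along the stages, while Kit had 1 fragment in the localized library and 0 in the others, and Flt3 stayed at or below 0.0558 FPKM.

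**Figure D4:**
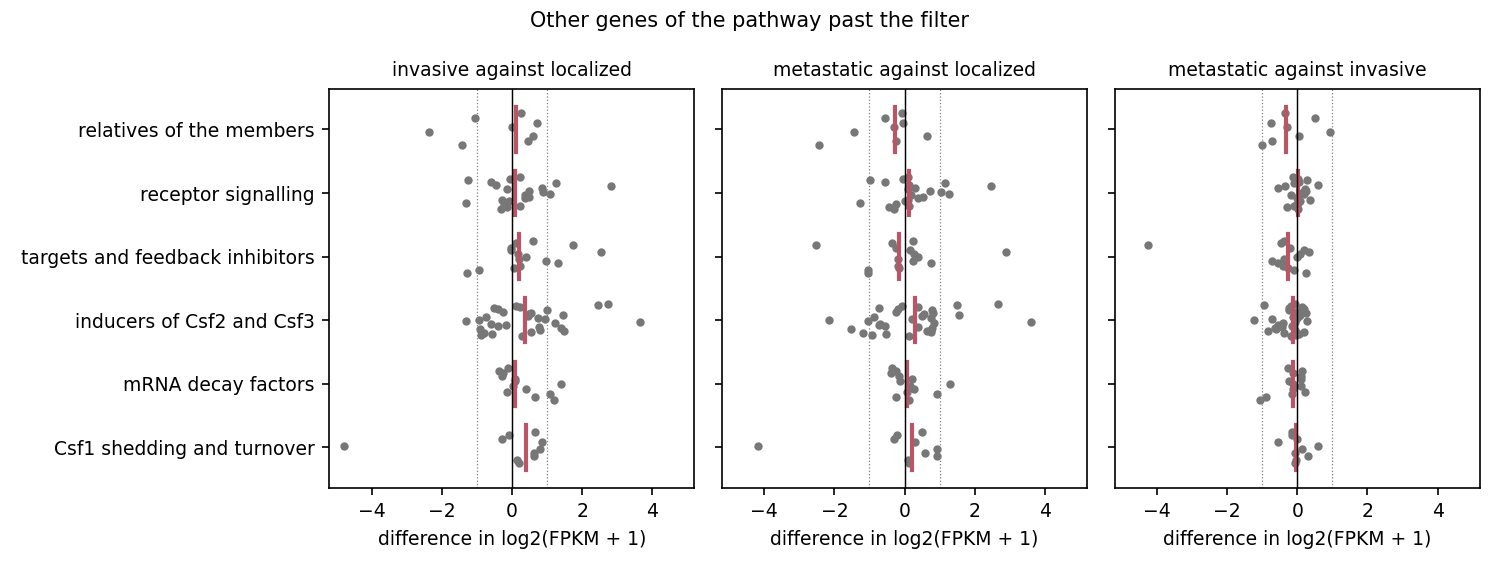
Each point is 1 listed gene past the filter on low values, placed by its difference in log2(FPKM + 1), red bars are list medians and dotted lines mark 2-fold. The medians lie between -0.32 (relatives, -0.02 without the filter) and 0.41, and Timp3 stands apart from its list at -4.77 for invasive against localized.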

How the data were processed

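Trizol was used for RNA extraction, and a TruSeq kit for libraries from 1 ug of total RNA, per the labels' protocols. The authors deposited 1 table of FPKM per gene; STAR 2.5.2a, FastQC 0.11.2, Cufflinks 2.2.1 and GRCm38 are named in the submitters' processing notes, without role or order, and strand and pairing are not given in the sources used here. The deposited FPKM had a lowest value of exactly 0.1 in each column, so 0.1 was subtracted. Of 22784 entries, 27 with numbers in place of symbols were left out. A further allele of the genotype label and 1 of the listed signalling genes are not reported here, so that list is given without its count of lower genes for the comparisons with the localized library.

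Fragments were estimated from 14383 genes with 1 RefSeq-linked transcript in GENCODE M21 (GRCm38). Depth and a length correction of 181 to 186 bases were chosen so that low values came nearest to whole numbers; 76.2% to 76.6% of genes at 1 to 6 fragments then lay within 0.1 of one, against 20% for evenly spread values. For genes with several transcripts the longest was used. Intervals are exact Poisson for levels and exact Clopper-Pearson for ratios, at 95%, and the limit of a 0 is 3 fragments. The FPKM summed to 572661, 575446 and 565287 in the localized, invasive and metastatic libraries.

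Differences used log2(FPKM + 1), a mean of at least 1 FPKM and a call at 2-fold, with no test, since each group has 1 library. The depth estimate and the calls were tested on simulated data, which held counting error only and no spread between cultures. The members, the 15 lists (214 entries, 213 found, 2 under older symbols) and the rules were chosen with earlier results of these data known. The genes that could be named were the members, listed genes past 2-fold, the highest of each list and close relatives, plus the 5 nearest genes to each member reaching 10 FPKM and the 3 neighbours on each side, and not all of these are named; further listed genes within 2-fold and markers were named to describe a list after their values were seen. Sequences are from GENCODE M21 and RefSeq. Python 3.11.15, numpy 2.4.6, scipy 1.17.1 and pandas 2.3.3 were used. Alternatives covered pseudocount, filter, subtraction, scaling and call limit.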

Additional observations from a re-analysis of the deposited data

How the results depend on the processing

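With 1 library per group the spread between cultures is unknown, and the intervals limit only the counting error. No paired analysis was possible because each group has 1 library. Rescaling to TPM or by median ratios, and leaving 0.1 in place, changed no count for the 8 genes, nor did a pseudocount of 0.1 or 5, no filter or a filter at 5 FPKM. At a call of 4-fold, 0 were higher and 0 lower for metastatic against invasive. At 1.5-fold, 3 were lower for metastatic against invasive and 1 for metastatic against localized. Differences of the low-to-high genes depend on the pseudocount: for invasive against localized they ran from 4.09 to 6.52 for Csf2, 4.72 to 7.42 for Csf3 and 3.52 to 7.64 for Il5ra. No called difference changed sign. Scaling moved the median of all genes by at most 0.01 from 0. Without the filter the median of the signalling genes for invasive against localized was -0.05, and those of the relatives were 0.00, -0.06 and -0.02. Taking the shortest Csf1 transcript, chosen after seeing the data, gave 6925, 6907 and 4158 fragments along the stages in place of 14440, 14422 and 8673.

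Counts over all genes moved as follows, given as higher and lower. For invasive against localized (1001 and 693) they were 575 and 359 with a pseudocount of 5, 360 and 252 at 4-fold and 1727 and 1363 at 1.5-fold, and 376 were lower with a filter at 5 FPKM. For metastatic against localized (1035 and 831) they were 631 and 464, 393 and 314, and 1816 and 1608 in the same order, with 488 lower at 5 FPKM. For metastatic against invasive (152 and 191) they were 62 and 67, 33 and 22, and 400 and 610, with 69 higher at 5 FPKM and 373 lower with a pseudocount of 0.1.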

Other observations

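The listed genes beside Csf2, Csf3 and Il5ra on the chromosome differed less than these members did. This did not hold for the other members, whose own differences were small. For invasive against localized, Csf1 had a difference of 0.15 and its neighbour Eps8l3 one of 4.39. Csf2rb had 0.02 and Ncf4, near it, 3.11. Csf3 lies between Psmd3, a proteasome subunit, and Med24, a Mediator subunit. These had 117 and 22.2 FPKM in the invasive library, against 81.2 and 16.1 FPKM in the localized library, differences of 0.52 and 0.44 beside 6.40 for Csf3. On the other stretch of chromosome 11, Csf2 has Il3, at 0 in every library, and P4ha2, a collagen prolyl hydroxylase subunit with 46.9, 63.0 and 75.3 FPKM along the stages, near it. Acsl6, an acyl-CoA synthetase, had 0.0725, 1.17 and 0.144 FPKM, the order of Csf2, but did not pass the filter on low values. The genes nearest to Il5ra were Cntn4, a neural adhesion molecule at 0, 0.0191 and 0.0452 FPKM, and Trnt1 at 10.6, 18.8 and 18.8 FPKM.

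Some neighbours did differ. Ncf4, a phagocyte oxidase subunit 2 genes away from Csf2rb, had 0 FPKM in the localized, 7.65 FPKM in the invasive and 1.84 FPKM in the metastatic library. Slc26a2, a sulphate transporter 2 genes from Csf1r, had 2.67, 72.0 and 71.1 FPKM. Eps8l3, next to Csf1, had 0.397, 28.3 and 41.7 FPKM. Others went the opposite way, such as Pdgfrb, next to Csf1r, with 8.37, 0.838 and 1.845 FPKM. Pdlim4, near Csf2, and Oscp1, near Csf3r, were lower for metastatic against localized, with differences of -1.33 and -1.08.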
